A study of Mus musculus with 46 samples.

Results

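Absorptive colonocytes, the cells of the colon surface that take up salt and water, were picked from single-cell counts of mouse colon by the transcripts they carried. A barcode was a member when it had at least 200 detected genes, at least 1 UMI (a counted molecule) of 4 or more of the 6 markers Slc26a3, Car4, Aqp8, Krt20, Ceacam1 and Guca2a, and less than 3% of its UMIs on the goblet cell genes Muc2, Clca1, Fcgbp, Zg16, Tff3, Spink4 and Agr2. This gave 10012 members of 25661 barcodes. Matrix Ime held 538 members of 4732 barcodes (11.4%, exact binomial interval 10.5 to 12.3%), matrix Met 7518 of 12928 (58.2%, 57.3 to 59.0%) and matrix CT 1956 of 8001 (24.4%, 23.5 to 25.4%).

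The study gave male C57BL/6J mice metformin, a biguanide used in type 2 diabetes, or imeglimin, a structurally related tetrahydrotriazine. Its single-cell sample is colon after 12 weeks, for which the sources used here state no drug concentration. All 3 matrices belong to that 1 sample, whose title carries the word Control and whose treatment label lists Control, Metformin and Imeglimin, so the link of Ime, Met and CT to a treatment rests on the deposited name alone. There are no replicates, and no matrix can be tied to animals, so no test was run on the cells and every interval below covers counting error only. The replicated measure used beside it is bulk RNA-seq of whole colon after 4 weeks, with 3 libraries each of mice that drank imeglimin at 3 mg/mL, metformin at 3 mg/mL, or no drug (Control). The age of the mice and whether each library is a separate animal are not given in the sources used here, so a p-value weighs only the spread from library to library, which may be technical. In bulk colon, fewer cells of a type and less RNA per cell cannot be told apart, and other cell types contribute too.

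Colonocytes arise from stem cells at the crypt base, climb towards the surface and are shed there. On their brush border, Slc26a3 exchanges chloride for bicarbonate and Slc9a3 exchanges sodium for protons, with carbonic anhydrases such as Car1, Car2 and Car4 supplying the exchanged ions, while Aqp8 is a water channel. The same cells burn butyrate made by gut bacteria, secrete the peptide guanylin (Guca2a), hold bacteria at a distance with proteins such as Lypd8 and hydrogen peroxide from Duox2, and hydrolyse drugs and lipids with carboxylesterases.

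All 6 markers were abundant in the members of each matrix, which is what the rule asked for and is given as a description. Slc26a3 stood at 3570, 2063 and 2058 counts per 1e6 UMIs (CPM) in Ime, Met and CT, and Car4 at 5386, 4133 and 2985 CPM. Aqp8 stood at 1901, 3227 and 1922 CPM, and Ceacam1, an adhesion molecule of the brush border, at 1706, 4334 and 1355 CPM. Krt20, a keratin of mature surface cells, stood at 1050.2, 2242 and 1046 CPM, and Guca2a at 592, 1936 and 1403 CPM. By summed CPM, Ime was thus highest in Slc26a3 and Car4, and Met in the other 4. By the share of members with a UMI at 1000 UMIs per cell, Ime was also highest in Aqp8 (57.5, 55.6 and 47.9% in Ime, Met and CT) and Krt20 (57.8, 54.2 and 48.1%), and CT in Guca2a (37.996, 49.98 and 57.2%), so the order depends on the measure. For Guca2a the log2 ratio of Met against CT was 0.46, and it ranged from -0.74 to 0.44 over 4 other ways of taking the members, which are described below. The 7 epithelial genes Epcam, Cdh1, Krt8, Krt18, Krt19, Cldn3 and Cldn7, which the rule did not use, summed to 18850 CPM in Ime, 22239 CPM in Met and 23975 CPM in CT, against 12831, 18648 and 14958 CPM in the barcodes that were not members. The members thus carried more epithelial transcripts than the rest, which a rule on colonocyte genes favours. In Met they also carried more transcripts of several other cell types than the rest, as given below. These 7 genes do not set absorptive colonocytes apart from other epithelial cells. At 1000 UMIs per cell, Ceacam1 had a UMI in more goblet cells (78.8, 90.4 and 79.8% in Ime, Met and CT) than members (74.7, 77.1 and 65.8%). Each other marker of the rule was in fewer goblet cells than members, with the smallest gaps in Met. There Krt20 was in 51.9% of goblet cells against 54.2% of members, and Guca2a in 42.2% against 49.98%.

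Members with the fewest markers were shallower than the rest and carried less of each. Those with exactly 4 markers were 25.7% of members in Ime, 18.5% in Met and 28.2% in CT, with a median of 3794, 3041 and 4933 UMIs. Barcodes with exactly 3 markers, just outside, had a median of 2832.5, 2241 and 3580 UMIs. Car4 stood at 335, 530 and 261 CPM just inside and at 264, 513 and 194 CPM just outside, and Slc26a3 at 733, 318 and 439 CPM inside and 575, 265 and 298 CPM outside. At the goblet limit, members with 2 to 3% goblet UMIs had a median of 8661, 3829 and 18288 UMIs, so in Ime and CT this edge was deeper than the members as a whole. They had 5252, 1683 and 1946 CPM of Car4, and barcodes with 3 to 4% had 7626, 1677 and 2484 CPM. There was no gap in marker level at either edge of the rule.

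**Figure D1:**
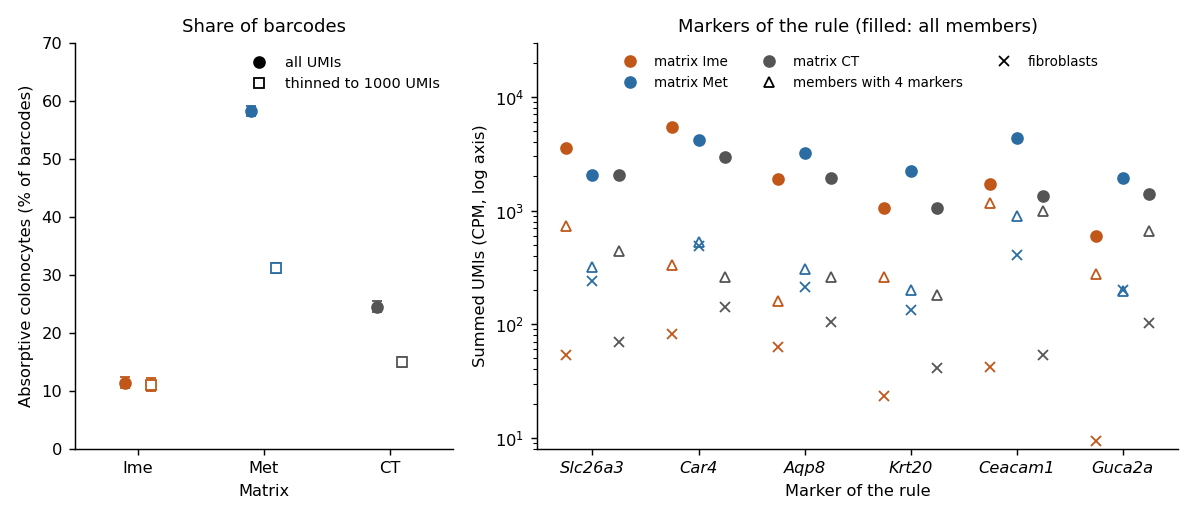
Left, members as percent of barcodes in matrices Ime, Met and CT (filled, all UMIs; open, barcodes of 1000 or more UMIs thinned to 1000; bars, exact binomial intervals). Right, summed CPM on a log axis of the 6 rule markers in all members (filled), in members with exactly 4 markers (triangles) and in fibroblasts (crosses). Thinning lowers Met to 31.1% and CT to 14.9%, and fibroblasts of Met carry up to 492 CPM of a colonocyte marker (Car4).

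Matrix Met stood apart from the others in depth and in foreign transcripts. Members had a median of 5559 UMIs in Ime, 9325.5 in Met and 6588.5 in CT, and the deepest barcode of each matrix held 163874, 951571 and 153588 UMIs. The deepest 1% of members held 8.07% of all member UMIs in Ime, 15.4% in Met and 8.66% in CT. When barcodes of at least 1000 UMIs were thinned to 1000 UMIs each and the rule applied again, 320 of 2912 (10.99%, 9.88 to 12.2%) passed in Ime, 3661 of 11754 (31.1%, 30.3 to 31.99%) in Met and 916 of 6135 (14.9%, 14.05 to 15.8%) in CT. The order of the 3 shares was kept, and the gap between Met and CT was smaller. When members with 2 or more UMIs over the immune, stromal and endothelial markers were left out, the order changed, with 222 members in Ime (4.69% of barcodes), 333 in Met (2.58%) and 722 in CT (9.02%), so Met had the lowest share in place of the highest. This cut is a fixed number of UMIs, which deeper barcodes reach more easily, and the members of Met were the deepest. How far depth shaped the new order was not tested.

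Colonocyte transcripts were also counted in fibroblasts, which should not make them. RNA shared between droplets and doublets cannot be told apart in these values. The fibroblast class admitted only barcodes with few epithelial genes, so those with more epithelial RNA are missing from it. In 472, 122 and 410 fibroblasts with a median of 815.5, 1791.5 and 1193 UMIs, Slc26a3 stood at 53.6, 240 and 70.2 CPM and Car4 at 81.5, 492 and 140 CPM in Ime, Met and CT. At 1000 UMIs each, Car4 had a UMI in 67.5, 62.1 and 48.7% of members and in 7.09, 39.0 and 13.2% of fibroblasts. The colonocyte markers thus reached further into other cells in Met than in Ime or CT.

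Markers of other cell types were present in the members, and the immune, stromal, endothelial and enteroendocrine lists were highest in Met. The 8 fibroblast markers summed to 251 CPM in Ime, 1852 CPM in Met and 310 CPM in CT, and 7.06, 38.8 and 8.54% of members had a UMI of 3 or more of them. The 8 smooth muscle markers summed to 456, 1361 and 616 CPM, with 3 or more in 7.62, 51.7 and 11.4% of members. B and plasma cell markers summed to 118, 388 and 86.4 CPM, macrophage markers to 62.8, 179 and 92.7 CPM, endothelial markers to 53.0, 107 and 37.1 CPM, and T and NK cell markers to 4.80, 18.5 and 7.28 CPM. No marker of these lists was at 0 in Met. In Ime and CT, 1 T and NK cell marker was at 0, and in Ime also 1 macrophage marker. Enteroendocrine markers summed to 533, 722 and 658 CPM and tuft cell markers, highest in Ime, to 109, 73.3 and 45.7 CPM. Markers of cycling cells (375, 328 and 481 CPM) and stem cells (490.2, 513 and 629 CPM) were highest in CT. Members of Met carried more fibroblast (1852 against 1076 CPM), smooth muscle (1361 against 1210) and B and plasma cell markers (388 against 248) than its other barcodes. The same held for enteroendocrine (722 against 346), tuft (73.3 against 35.6) and endothelial markers (107 against 102). Macrophage and T and NK cell markers went the other way. In Ime and CT members carried less of each of these lists, as for fibroblasts (251 against 1718 and 310 against 2367). No doublet caller was run. Between matrices 0 full barcodes were shared, but droplet barcodes were, 1007 between Ime and Met, 625 between Ime and CT and 1686 between Met and CT, as can happen when cells with different probe barcodes are pooled before they enter droplets. Members in such shared droplets numbered 179 (33.3%) in Ime, 1438 (19.1%) in Met and 606 (31.0%) in CT. The part of depth, foreign transcripts and shared droplets in the differences below was not tested.

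**Figure D2:**
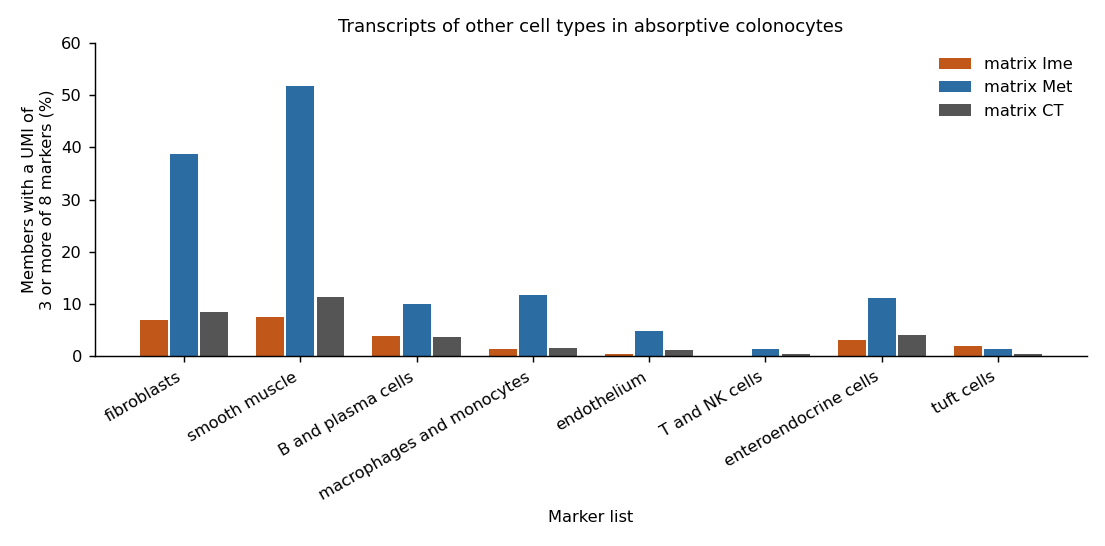
Percent of absorptive colonocytes (y axis) with at least 1 UMI of 3 or more of the 8 markers of another cell type (x axis), in matrices Ime, Met and CT (bars). The bars of Met reach 38.8% for fibroblasts and 51.7% for smooth muscle, above those of Ime and CT.

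To compare matrices, UMIs were summed over members and scaled to CPM, and a gene counted as past 2-fold when the CPM ratio passed 2 in either direction, with 50 CPM in 1 of the 2 matrices and 50 UMIs over both. Ime against CT gave 65 genes higher and 68 lower of 5006 (1.30% and 1.36%). Met against CT gave 166 higher and 121 lower of 5051 (3.29% and 2.40%), and Ime against Met gave 314 higher and 306 lower of 5015 (6.26% and 6.10%). Scaling by the median of ratios, in place of total UMIs, moved the share of higher calls from 57.8 to 79.7% in Met against CT and from 50.6 to 36.4% in Ime against Met, and the median log2 ratio over these genes was -0.14 and 0.09 before it. Log2 ratios below are followed, for the genes the results turn on, by their range over 4 other ways of taking the members. These are the rule on thinned counts, no members with 2 or more UMIs over the immune, stromal and endothelial markers, cells weighted equally, and only members with 3000 to 15000 UMIs, the last chosen after the data were seen. The cut at 2 UMIs takes no account of depth, so it removes deep members more readily. Of 126 genes named by rule, the ratio changed sign under at least 1 of the 4 for 34 in Ime against CT, 39 in Met against CT and 24 in Ime against Met, of which 2, 3 and 6 were past 2-fold over all members.

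Of 21 gene lists by function, the interferon-induced genes had the highest median ratio over all members in both Ime and Met. Of its 20 genes, 17 were found in the probe set by symbol and had at least 50 UMIs over the 3 matrices, a floor that 14329 genes passed in all. Over all genes the median log2 ratio was -0.14 for Ime against CT and -0.05 for Met against CT, and for the interferon list it was 1.21 and 2.30. Next in Ime came the antimicrobial and acute phase list at 1.01, which stood at -0.25 in Met, and next in Met came antigen presentation at 1.39, which dropped to 0.38 when the rule was applied to thinned counts. The first place depended on the members taken, since the antimicrobial list (1.02) passed the interferon list (0.95) in Ime on thinned counts and also at 3000 to 15000 UMIs (1.38 against 1.09), where antigen presentation (2.00) passed it (1.39) in Met. Lowest in Ime over all members were guanylin and cyclic GMP signalling at -0.62, which includes the rule marker Guca2a, glutathione and NRF2 targets at -0.47 and cholesterol synthesis and uptake at -0.47. On thinned counts the guanylin list, which has 5 genes, was at -0.25, above glutathione (-0.67), cholesterol (-0.46) and heat shock (-0.40). Lowest in Met were calcium and phosphate transport at -0.42 and cholesterol at -0.27.

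**Figure D3:**
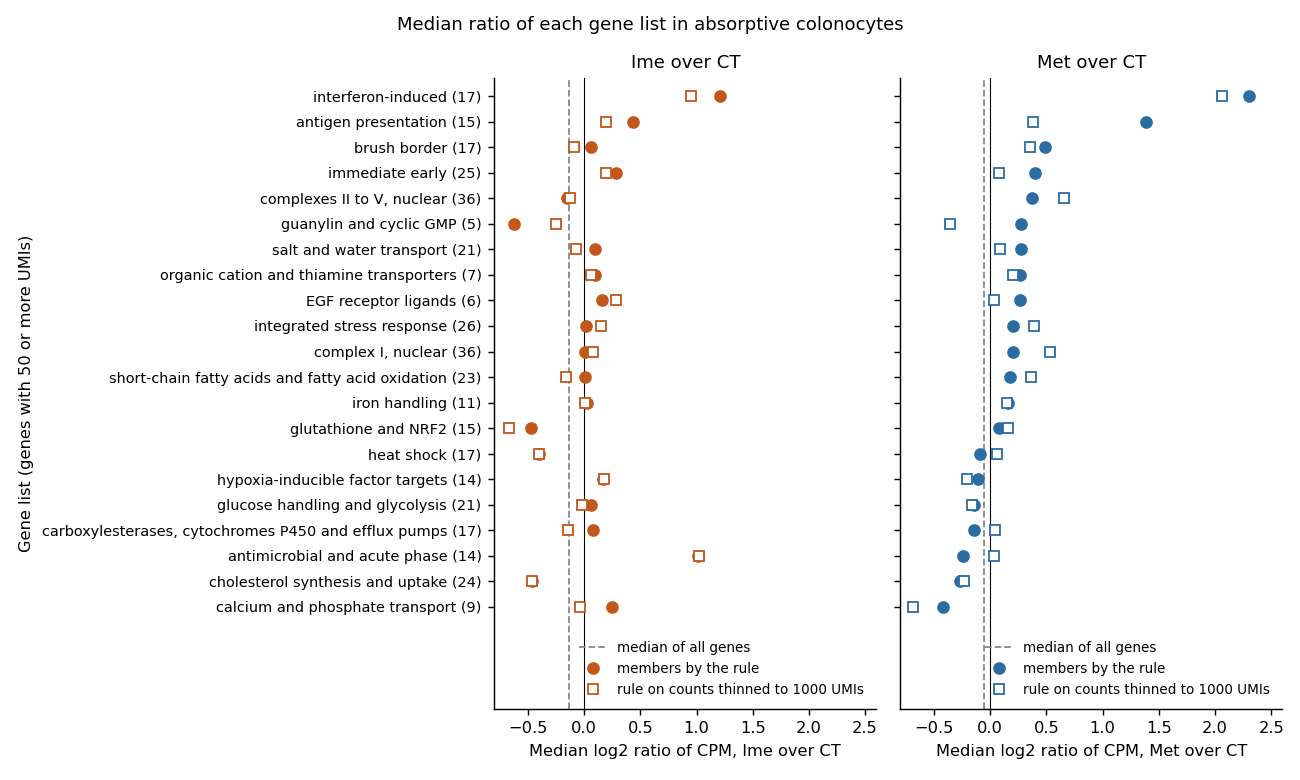
Median log2 ratio of CPM (x axis) of each gene list (y axis, with its number of genes) for Ime over CT and Met over CT. Circles are members by the rule, squares the rule on thinned counts, and the dashed line the median of all genes (-0.14 and -0.05). The interferon-induced list sits at 1.21 and 2.30, and at 0.95 and 2.06 by the thinned rule.

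Interferon-induced genes were higher in the members of Ime and of Met than in those of CT. Cells switch these genes on when interferons bind their receptors, and the products block viruses. Of the 17 genes, 17 were higher in Ime and 16 had a counting interval above 0, against 15.5% of all genes. In Met 16 were higher, all 16 with intervals above 0, against 35.1% of all genes. Isg15, a ubiquitin-like modifier, stood at 139 CPM (128 to 151) in Ime, 345 CPM (342 to 348) in Met and 52.2 CPM (49.1 to 55.5) in CT, log2 ratios to CT of 1.42 (1.04 to 2.26 over the other ways) and 2.72 (1.51 to 2.49). Irf7, the transcription factor that amplifies the interferon response, stood at 299, 695 and 136 CPM, with log2 ratios of 1.14 (0.95 to 1.27) and 2.36 (1.98 to 2.39). Over all members Met was highest and CT lowest for both genes. For Isg15 the log2 ratio of Ime against Met was -1.31, and without members carrying other cells' markers it was 0.69, so Ime was then highest.

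Ifit1, which binds viral RNA caps, stood at 20.6 CPM in Ime, 88.9 CPM in Met and 6.18 CPM in CT, and Oas3, an enzyme that makes the second messenger for RNase L, at 19.0, 56.7 and 6.33 CPM. Irf1, a transcription factor of the interferon gamma response, was at 447 CPM in Ime, 267 CPM in Met and 277 CPM in CT, so it was the 1 gene of the list that was not higher in Met. At 1000 UMIs per cell, Isg15 had a UMI in 46 of 529 members of Ime (8.70%, 6.44 to 11.4%), 1019 of 7327 of Met (13.9%, 13.1 to 14.7%) and 56 of 1927 of CT (2.91%, 2.20 to 3.76%). In fibroblasts the share was 1.42% in Ime, 1.00% in Met and 1.10% in CT. Without thinning, 20.6, 52.5 and 12.4% of members had an Isg15 UMI. In Irf7 the thinned shares were 25.1, 31.1 and 11.8% of members and 4 of 141, 8 of 100 and 11 of 272 fibroblasts. The shares in members lay above those in fibroblasts for both genes in every matrix.

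Goblet cells of the same matrices carried the difference too, and whether its size differs between the cell types was not tested. Their Isg15 stood at 88.6, 289 and 31.4 CPM, log2 ratios of 1.499 for Ime against CT and 3.20 for Met against CT, and their Irf7 at 226, 480 and 126 CPM. In bulk colon after 4 weeks, edgeR called 1487 genes higher and 946 lower with imeglimin of 18665 (7.97% and 5.07%), and 2168 higher and 1501 lower with metformin (11.6% and 8.04%, or 19.7% either way). Of the 20 interferon-induced genes tested there, 1 rose and 0 fell with imeglimin (median log2 fold change 0.39) and 4 rose and 0 fell with metformin (0.57), against medians of -0.02 and -0.05 over all genes. By the count of calls, the list did not stand above the 7.97% of all genes that rose with imeglimin. Irf7 had 83.7, 108 and 128 CPM in the imeglimin libraries, 150, 113 and 181 CPM in the metformin libraries and 64.3, 57.7 and 77.5 CPM in Control. All drug libraries lay above all Control libraries, and Irf7 rose with imeglimin, by 0.68 ± 0.19 on the log2 scale (SE, edgeR adjusted p = 0.0461) and with metformin, by 1.15 ± 0.20 (adjusted p = 0.00349). Ifit1 had 23.6, 21.9 and 66.4 CPM with imeglimin, 50.3, 23.98 and 71.1 CPM with metformin and 15.7, 5.48 and 13.99 CPM in Control. The groups did not overlap there either, and Ifit1 passed the test with metformin (2.04 ± 0.54, adjusted p = 0.0266) and not with imeglimin (1.66 ± 0.54, adjusted p = 0.071, but 0.0114 with the batch of the labels as a block). For Isg15 neither drug passed it (1.02 ± 0.54, adjusted p = 0.245, and 1.698 ± 0.54, adjusted p = 0.052), and metformin did with the block (adjusted p = 0.00341). The Irf7 call with imeglimin was lost when Control 1, 2 or 3, Imeglimin 2 or 3 or Metformin 1 was left out (adjusted p = 0.0616 to 0.132), and the Ifit1 call with metformin without Control 1, 2 or 3 or Metformin 3 (adjusted p = 0.0522 to 0.0838).

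The binding letters of the interferon factors were looked for in the promoters of these genes, since the genes moved together in the members. Windows of 250 bases before to 50 bases after the gene start came from RefSeq (build GRCm38.p6), and 15 of the 20 listed genes had one. The core of the interferon-stimulated response element, GAAA, then NN for any bases, then GAAA, on either strand and with overlapping matches counted, was in the windows of 10 of those 15 genes and in 1131 of all 32851 windows (3.44%). Isg15 (chr4:156200769-156201068, minus strand) held 3 overlapping matches, Ifit1 (chr19:34640639-34640938, plus strand) 2 matches, and Irf7 (chr7:141266375-141266674, minus strand) 0. They are printed 5′ to 3′ on the gene's strand to show how the matches sit, with the matching bases in capitals. A match is a description of letters and not a site shown to be bound, and no match says only that these letters are absent from this window.
Isg15: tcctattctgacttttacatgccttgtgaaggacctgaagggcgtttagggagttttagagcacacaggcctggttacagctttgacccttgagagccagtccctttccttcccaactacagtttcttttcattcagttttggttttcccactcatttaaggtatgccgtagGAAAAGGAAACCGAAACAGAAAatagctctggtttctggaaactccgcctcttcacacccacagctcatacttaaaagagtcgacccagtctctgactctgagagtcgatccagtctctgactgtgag
Ifit1: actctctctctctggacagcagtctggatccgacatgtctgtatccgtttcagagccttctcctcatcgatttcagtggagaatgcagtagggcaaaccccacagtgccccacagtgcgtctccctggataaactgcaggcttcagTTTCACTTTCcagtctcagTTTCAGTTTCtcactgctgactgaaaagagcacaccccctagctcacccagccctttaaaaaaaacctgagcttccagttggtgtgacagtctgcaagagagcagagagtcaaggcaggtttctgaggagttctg
Irf7: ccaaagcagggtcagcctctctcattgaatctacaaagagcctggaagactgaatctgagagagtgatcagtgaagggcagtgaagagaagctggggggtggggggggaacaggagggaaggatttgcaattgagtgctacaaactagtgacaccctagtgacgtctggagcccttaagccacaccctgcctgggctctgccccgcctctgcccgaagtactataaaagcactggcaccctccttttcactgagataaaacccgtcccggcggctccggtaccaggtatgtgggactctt

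Defence genes of the epithelium were also higher in Ime, and the oxidase Duox2 and its partner in Met too. Duox2, the oxidase that releases hydrogen peroxide at the cell surface, stood at 396 CPM in Ime, 309 CPM in Met and 133 CPM in CT, log2 ratios of 1.57 (1.25 to 1.78 over the other ways) and 1.22 (0.95 to 1.95). Duoxa2, its maturation factor, stood at 186, 132 and 68.5 CPM, and Slfn4, a Schlafen family gene that is not on the antimicrobial list, at 198, 105 and 44.4 CPM. Of the 14 antimicrobial and acute phase genes with 50 UMIs, 11 were higher in Ime than in CT, 10 with intervals above 0 (71.4%, against 15.5% of all genes). In Met 6 were higher, 5 with intervals above 0 (35.7%, against 35.1% of all genes), so the list as a whole was at the background in Met. Lypd8, which binds flagellated bacteria, stood at 5819 CPM in Ime, 12945 CPM in Met and 6720 CPM in CT, log2 ratios of -0.21 (-0.43 to 0.06 over the other ways) and 0.95 (0.31 to 0.76).

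In bulk colon the same oxidase pair rose with imeglimin. Duox2 had 215, 288 and 330 CPM with imeglimin, 154, 177 and 204 CPM with metformin and 128, 130 and 133 CPM in Control. Both drug groups lay above Control, and the rise passed the test for imeglimin (log2 fold change 1.09 ± 0.15, edgeR adjusted p = 0.00378) but not for metformin (0.45 ± 0.15, adjusted p = 0.0559, or 0.0233 with the batch block). Duoxa2 rose with imeglimin (1.10 ± 0.17, adjusted p = 0.00521), and with metformin its groups overlapped (0.25 ± 0.17, adjusted p = 0.315). Of the 15 list genes tested in bulk, 2 rose and 1 fell with imeglimin and 1 rose and 1 fell with metformin. Of all genes, 7.97% rose and 5.07% fell with imeglimin, and 11.6% rose and 8.04% fell with metformin, so the list's counts were near that background. Lypd8 differed from Control with neither drug (0.01 ± 0.10, adjusted p = 0.971, and 0.18 ± 0.10, adjusted p = 0.219).

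Hexokinases, which trap glucose in the cell, differed between the matrices. Hkdc1, a hexokinase, stood at 48.9 CPM (42.5 to 55.9) in Ime, 40.5 CPM (39.5 to 41.6) in Met and 3.27 CPM (2.52 to 4.16) in CT. These levels are under the floor of 50 CPM, so Hkdc1 is not among the genes counted past 2-fold. The ratio to CT was 15.0-fold in Ime (log2 3.90, 3.55 to 4.12 over the other ways) and 12.4-fold in Met (log2 3.63, 3.07 to 3.30), and no UMI of it was found in the fibroblasts of any matrix. At 1000 UMIs per cell, 25 of 529 members of Ime (4.73%, 3.08 to 6.90%), 232 of 7327 of Met (3.17%, 2.78 to 3.59%) and 11 of 1927 of CT (0.571%, 0.285 to 1.02%) had an Hkdc1 UMI. Among fibroblasts it was 0 of 141, 0 of 100 and 0 of 272, with exact binomial intervals up to 2.58, 3.62 and 1.35%. Without thinning, 23.2, 25.2 and 2.97% of members had one. Goblet cells stood at 24.4, 21.2 and 3.67 CPM. In bulk, Hkdc1 had 36.3, 27.95 and 66.1 CPM with imeglimin, 29.8, 40.3 and 29.4 CPM with metformin and 4.47, 5.54 and 4.85 CPM in Control. Every drug library exceeded every Control library, and Hkdc1 rose by 3.13 ± 0.30 on the log2 scale with imeglimin (adjusted p = 0.00233) and 2.74 ± 0.30 with metformin (adjusted p = 0.000404).

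Hk2, the hexokinase of high-glycolysis cells, stood at 1072, 560 and 625 CPM in Ime, Met and CT, higher in Ime (log2 0.78, 0.60 to 0.98 over the other ways) and lower in Met (-0.16, -0.67 to -0.37). In bulk it rose with imeglimin (338, 381 and 433 CPM, against 259, 267 and 270 CPM in Control, log2 fold change 0.53 ± 0.12, edgeR adjusted p = 0.0197). With metformin it had 312, 322 and 241 CPM, overlapping Control (0.14 ± 0.12, adjusted p = 0.45). The imeglimin call was lost without Control 1, 2 or 3 or Imeglimin 2 or 3 (adjusted p = 0.0521 to 0.0671). Slc2a1, the basal glucose transporter, was at 279, 336 and 267 CPM in the members, and for Met against CT its direction depended on the members taken (log2 0.33, -0.34 to 0.19 over the other ways). It rose in bulk with both drugs (0.46 ± 0.08, adjusted p = 0.00717, and 0.82 ± 0.08, adjusted p = 0.000291), and all 3 libraries of each drug exceeded all 3 of Control. Of 21 glucose and glycolysis genes, 12 were higher in Ime and 8 in Met than in CT, medians of 0.06 and -0.15. Intervals lay above 0 for 9 (42.9%) in Ime and 8 (38.1%) in Met, against 15.5 and 35.1% of all genes. They lay below 0 for 7 (33.3%) and 12 (57.1%), against 29.7 and 42.6% of all genes.

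The carboxylesterases Ces2b, Ces2c and Ces2e and the cytochrome P450 Cyp2c55 were higher in the members of Ime, and Ces2b and Ces2e also in Met. Ces2b stood at 63.7, 38.7 and 10.95 CPM in Ime, Met and CT (log2 2.54, 2.44 to 2.75 over the other ways, and 1.82, 1.02 to 1.73), Ces2e at 148, 256 and 69.3 CPM and Ces2c at 1484, 954 and 701 CPM. Cyp2c55 stood at 1304, 1018 and 672 CPM (log2 0.96, 0.60 to 0.99, and 0.60, -0.16 to 0.46), so for Met its direction changed with the choice of members, as it did for Ces2c (0.45, -0.03 to 0.24). Of the 17 genes of this list with 50 UMIs, 10 were higher and 7 lower in Ime (median 0.08), and 7 were higher and 10 lower in Met (median -0.15). Intervals lay above 0 for 9 (52.9%) in Ime and 6 (35.3%) in Met, against 15.5 and 35.1% of all genes. They lay below 0 for 2 (11.8%) and 8 (47.1%), against 29.7 and 42.6% of all genes. In bulk Ces2b had 69.5, 66.4 and 101 CPM with imeglimin, 70.4, 79.5 and 103 CPM with metformin and 24.5, 15.3 and 26.1 CPM in Control. The groups did not overlap, and it rose with both drugs (log2 fold change 1.84 ± 0.23, edgeR adjusted p = 0.00321, and 1.93 ± 0.23, adjusted p = 0.000661), as did Ces2e (1.57 ± 0.09 and 1.83 ± 0.10), Ces2c (0.93 ± 0.10 and 0.78 ± 0.10) and Cyp2c55 (1.01 ± 0.14 and 1.498 ± 0.14), with adjusted p from 2.95e-05 to 0.00378 over these 6 values. The Ces2 genes are close copies of each other, so the bulk reads may be split between them. Of the 19 list genes tested in bulk, 7 rose with imeglimin and 6 with metformin, and 0 fell, against 7.97 and 11.6% of all genes that rose.

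Nutrient carriers of the members differed as well. Tfrc, the receptor that brings in transferrin-bound iron, stood at 183, 227 and 96.2 CPM in Ime, Met and CT (log2 0.93 and 1.24). In bulk it had 1035, 988 and 796 CPM with imeglimin, 1039.7, 996 and 1020.4 CPM with metformin and 145, 163 and 144 CPM in Control. The drug libraries all lay above the highest of Control, and Tfrc rose on the log2 scale by 2.64 ± 0.11 with imeglimin (edgeR adjusted p = 4.09e-06) and 2.76 ± 0.11 with metformin (adjusted p = 2.8e-06), a wider difference than in the members. Slc43a3, a carrier of purine bases, stood at 42.0, 59.2 and 7.49 CPM in the members, but fibroblasts carried 140, 315 and 167 CPM of it. It rose in bulk with both drugs (1.49 ± 0.18, adjusted p = 0.00308, and 2.13 ± 0.19, adjusted p = 0.000205). Abcg5, a subunit of the sterol efflux pump, was highest in Ime, with 223, 54.8 and 58.2 CPM (log2 1.94 against CT, 1.51 to 1.99 over the other ways). Its bulk libraries were scattered, 13.9, 6.24 and 54.4 CPM with imeglimin, 12.96, 27.8 and 20.7 CPM with metformin and 9.87, 2.25 and 6.86 CPM in Control, and passed the test for neither drug (adjusted p = 0.11 and 0.132).

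**Figure D4:**
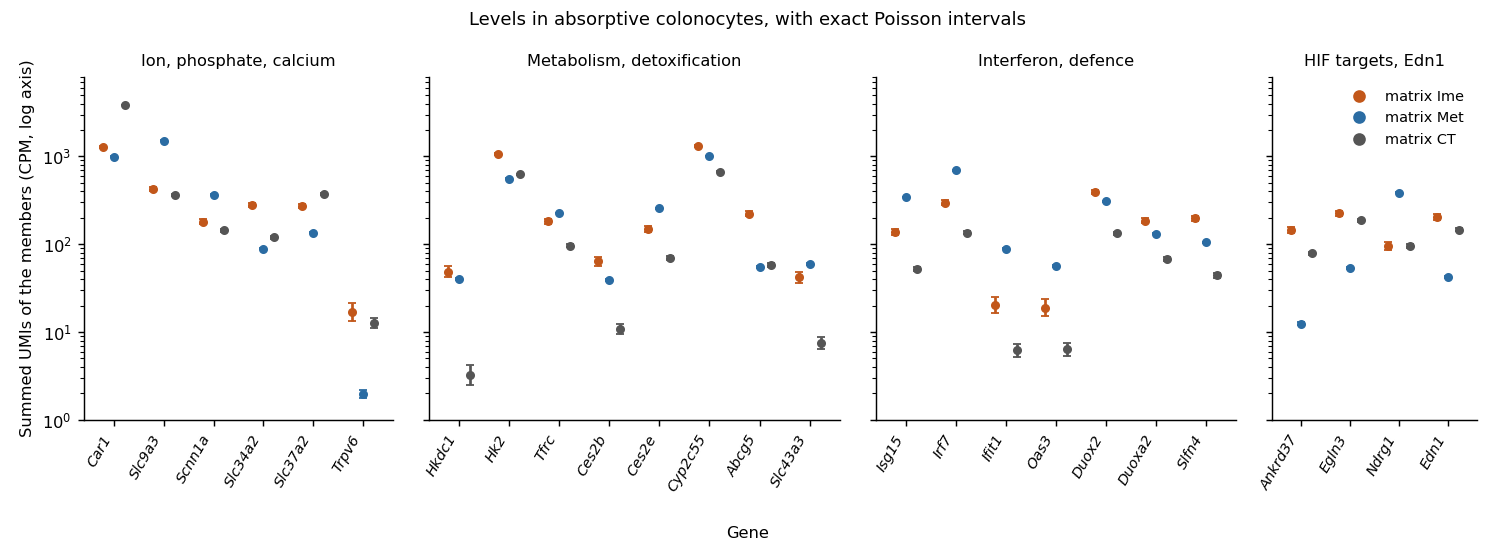
Summed CPM (y axis, log scale) of named genes (x axis) in absorptive colonocytes of matrices Ime, Met and CT, with exact Poisson intervals. Hkdc1, Ces2b, Slc43a3, Isg15 and Ifit1 are lowest in CT, and Trpv6, Ankrd37, Egln3 and Edn1 are lowest in Met.

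Transporters of ions and water split by gene and by matrix. Car1, a cytosolic carbonic anhydrase of the proximal colon, was lower in both drug matrices, with 1278 CPM in Ime, 993 CPM in Met and 3852 CPM in CT. The log2 ratio to CT was -1.59 in Ime (-2.09 to -1.48 over the other ways) and -1.96 in Met (-3.07 to -2.18). At 1000 UMIs per cell, Car1 had a UMI in 190 of 529 members of Ime (35.9%, 31.8 to 40.2%), 1909 of 7327 of Met (26.1%, 25.1 to 27.1%) and 1156 of 1927 of CT (59.99%, 57.8 to 62.2%). In fibroblasts it was 0 of 141 in Ime (exact binomial interval up to 2.58%), 11 of 100 in Met and 25 of 272 in CT. Without thinning, 62.5, 65.2 and 84.7% of members had one. Goblet cells stood at 661, 574 and 2525 CPM. In bulk Car1 had 225, 451 and 110 CPM with imeglimin, 109, 128 and 67.4 CPM with metformin and 402, 753 and 378 CPM in Control. It fell with metformin (log2 fold change -2.33 ± 0.48, edgeR adjusted p = 0.00869), whose libraries all lay below Control, while the imeglimin libraries overlapped Control (-0.96 ± 0.46, adjusted p = 0.2, or 0.0178 with the batch block).

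The sodium transporter Slc9a3 and the sodium channel subunit Scnn1a were highest in Met. They come from a list of 21 salt and water genes, 3 of them rule markers. Of the 21, 12 were higher and 9 lower than in CT in both Ime and Met. Intervals lay above 0 for 11 (52.4%) in Ime and 10 (47.6%) in Met, against 15.5 and 35.1% of all genes. They lay below 0 for 7 (33.3%) and 8 (38.1%), against 29.7 and 42.6% of all genes. Part of these counts comes from values the rule used. Slc9a3 stood at 425, 1514 and 363 CPM in Ime, Met and CT, a log2 ratio of 2.06 for Met against CT (1.25 to 1.76 over the other ways), with 16.3, 150 and 12.6 CPM in fibroblasts. Scnn1a stood at 180, 366 and 144 CPM. In bulk Slc9a3 had 763, 1058 and 579 CPM with imeglimin, 1054, 880 and 962 CPM with metformin and 370, 735 and 479.9 CPM in Control. All metformin libraries exceeded Control (log2 fold change 0.87 ± 0.26, edgeR adjusted p = 0.039), and those of imeglimin overlapped it (0.60 ± 0.25, adjusted p = 0.154). The metformin call was lost without Control 1 or 3 or Metformin 1, 2 or 3 (adjusted p = 0.0725 to 0.119). Scnn1a rose with both (0.62 ± 0.13, adjusted p = 0.015, and 1.09 ± 0.13, adjusted p = 0.000667). Aqp8, which the rule used in the cells but not in bulk, had 303, 337 and 335 CPM with imeglimin, 851, 646 and 838 CPM with metformin and 531, 527 and 634 CPM in Control. The 3 groups did not overlap, and Aqp8 fell with imeglimin (-0.80 ± 0.12, adjusted p = 0.00447) and rose with metformin (0.46 ± 0.12, adjusted p = 0.0207, lost without Control 1 or 2 or Metformin 1 or 3, at 0.0621 to 0.075). Ceacam1 rose with both drugs (0.68 ± 0.13, adjusted p = 0.0116, and 0.82 ± 0.13, adjusted p = 0.00278), and the other 4 rule markers passed the test with neither. The imeglimin calls were lost for Ceacam1 without Control 3 (adjusted p = 0.0518) and for Scnn1a without Control 1 (adjusted p = 0.059). Of the same 21 genes, which include 3 rule markers, bulk gave 5 that rose and 2 that fell with imeglimin and 9 that rose and 1 that fell with metformin. Among all genes, 7.97% rose and 5.07% fell with imeglimin, and 11.6% rose and 8.04% fell with metformin.

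Phosphate and calcium genes differed between the drug matrices. Slc34a2, a sodium-driven phosphate carrier, stood at 279 CPM in Ime, 89.1 CPM in Met and 119 CPM in CT, and Trpv6, the apical calcium channel, at 16.9, 1.97 and 12.7 CPM. For Trpv6 the log2 ratio was 0.41 in Ime (0.12 to 0.40 over the other ways) and -2.69 in Met (-4.50 to -3.02), from 74, 289 and 253 UMIs. Trpv6 was under the floor of 50 CPM in every matrix, so it is not among the genes counted past 2-fold. In bulk Slc34a2 had 29.6, 49.6 and 59.9 CPM with imeglimin, 4.83, 5.17 and 6.09 CPM with metformin and 58.3, 28.1 and 40.5 CPM in Control. All metformin libraries lay below the others, and Slc34a2 fell with metformin (log2 fold change -2.98 ± 0.31, edgeR adjusted p = 0.00035) and overlapped Control with imeglimin (0.13 ± 0.28, adjusted p = 0.806). Trpv6 had 3.16, 3.50 and 3.68 CPM with imeglimin, 0.847, 0.869 and 0.406 CPM with metformin and 9.25, 10.5 and 9.84 CPM in Control. The 3 groups were separate, and Trpv6 fell with both drugs (-1.52 ± 0.23, adjusted p = 0.00473, and -3.80 ± 0.26, adjusted p = 7.17e-05).

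Slc37a2, a sugar phosphate and phosphate exchanger, was lower in both drug matrices than in CT. The members had 270.4, 136 and 371 CPM in Ime, Met and CT (log2 -0.46, -0.91 to -0.27 over the other ways, and -1.45, -2.55 to -1.89). The bulk libraries had 52.6, 58.8 and 95.2 CPM with imeglimin, 43.9, 27.5 and 67.4 CPM with metformin and 464, 401 and 525 CPM in Control. The drug libraries did not reach the Control range, and Slc37a2 fell by 2.75 ± 0.32 on the log2 scale with imeglimin (edgeR adjusted p = 0.00292) and fell by 3.32 ± 0.33 with metformin (adjusted p = 0.000291). Gcnt1, which builds branched O-glycans, stood at 35.6, 18.8 and 63.0 CPM in the members and fell in bulk with both drugs (-1.58 ± 0.17, adjusted p = 0.00292, and -2.07 ± 0.18, adjusted p = 0.000201).

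**Figure D5:**
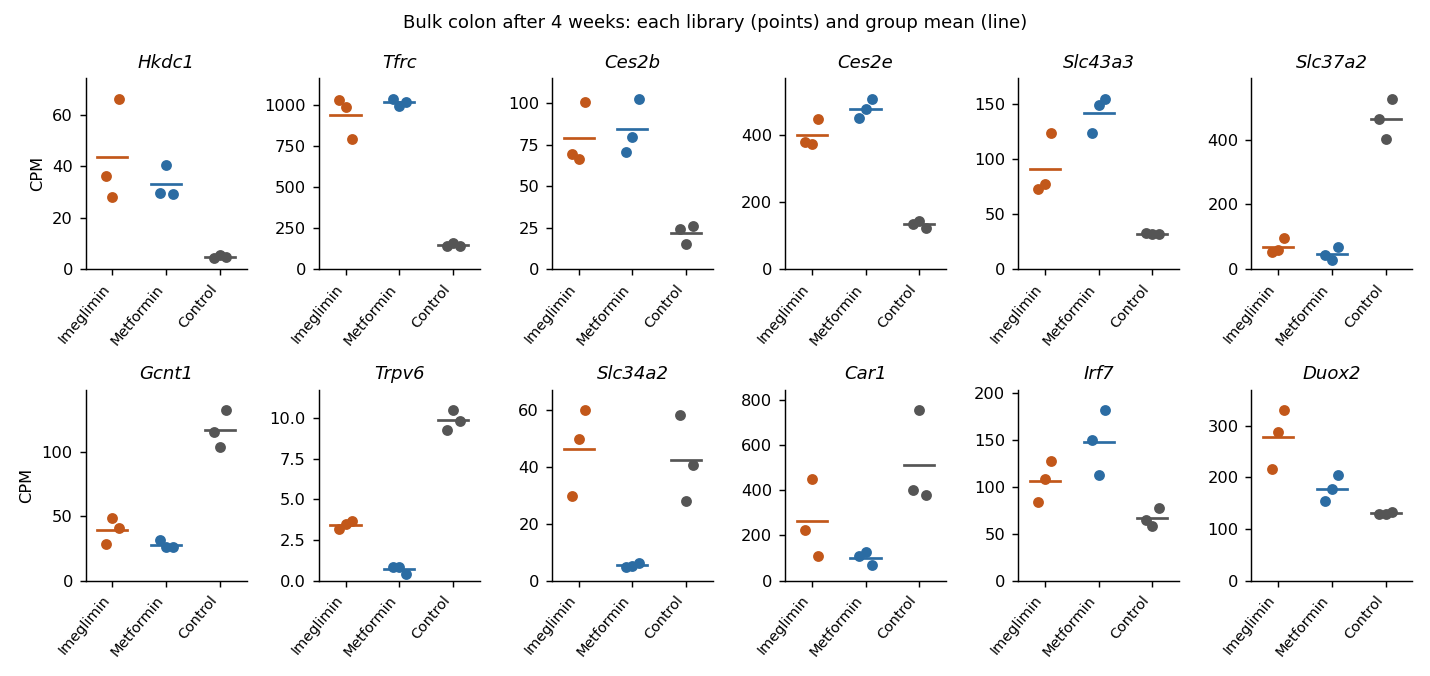
Bulk colon after 4 weeks, CPM (y axis) of each library (points) and group mean (lines) in the Imeglimin, Metformin and Control groups (x axis), 1 panel a gene. Hkdc1, Tfrc and the Ces2 genes have every drug library above every Control library, Slc37a2 and Gcnt1 have every drug library below, and Slc34a2 has only the Metformin libraries below.

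Some targets of the hypoxia-inducible factors, transcription factors that are stable when oxygen is short, differed between Ime and Met. Ankrd37 stood at 147 CPM in Ime, 12.4 CPM in Met and 78.6 CPM in CT, an 11.8-fold difference between Ime and Met (log2 3.56, 2.73 to 4.09 over the other ways). Egln3, the prolyl hydroxylase that marks these factors for decay, stood at 225, 53.5 and 187 CPM, and Vegfa, the growth factor of blood vessels, at 209, 81.1 and 134 CPM. Edn1, the vasoconstrictor peptide endothelin, which is not on the list, stood at 204, 42.7 and 147 CPM. Ndrg1 went the other way, with 95.9, 388 and 95.7 CPM. Of the list's 14 genes, 9 were higher and 5 lower in Ime than in Met, with a median of 0.25 (0.0016 to 0.70 over the other ways, against -0.11 over all genes), and the medians against CT were 0.17 in Ime and -0.11 in Met. In bulk, Ankrd37 had 5.31, 9.36 and 2.91 CPM with imeglimin, 2.06, 2.61 and 1.72 CPM with metformin and 6.69, 6.99 and 8.61 CPM in Control. The metformin libraries lay below all the others, and Ankrd37 (log2 fold change -1.80 ± 0.37, edgeR adjusted p = 0.0085), Egln3 (-1.37 ± 0.18, adjusted p = 0.000936) and Edn1 (-1.33 ± 0.29, adjusted p = 0.0122) fell with metformin. With imeglimin none of the 3 passed the test (adjusted p = 0.568, 0.0799 and 0.19). Ndrg1 rose with both (0.83 ± 0.17, adjusted p = 0.0136, or 0.0575 without Control 3, and 1.35 ± 0.17, adjusted p = 0.000882). Of the list's 14 genes in bulk, 2 rose and 0 fell with imeglimin and 3 rose and 5 fell with metformin. Among all genes, 7.97% rose and 5.07% fell with imeglimin, and 11.6% rose and 8.04% fell with metformin.

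The core of the hypoxia response element, ACGTG on either strand, was in the RefSeq windows of 10 of the 12 listed genes that had one, and in 6447 of all 32851 windows (19.6%), so these letters are common. The window of Ankrd37 (chr8:45999801-46000100, minus strand, GRCm38.p6), printed because of its ratio between Ime and Met, held 2 matches, shown in capitals.
Ankrd37: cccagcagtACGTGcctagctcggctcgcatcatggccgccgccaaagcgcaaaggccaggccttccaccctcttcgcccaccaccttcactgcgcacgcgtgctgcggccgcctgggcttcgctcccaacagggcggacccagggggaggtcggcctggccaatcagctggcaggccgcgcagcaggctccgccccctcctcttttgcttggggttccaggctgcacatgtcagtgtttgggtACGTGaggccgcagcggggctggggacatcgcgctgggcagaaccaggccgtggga

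The respiratory chain makes ATP in mitochondria, and metformin is known to inhibit its complex I. By median, genes of the chain were near their CT level in Ime, and in Met their direction depended on the members taken. The 36 nuclear complex I genes had a median log2 ratio of 0.01 in Ime and 0.20 in Met, with 19 and 24 higher than CT. The 36 measured genes of complexes II to V had medians of -0.15 and 0.37. Over all genes the medians were -0.14 and -0.05. Complex I intervals lay above 0 for 11 (30.6%) in Ime and 24 (66.7%) in Met, against 15.5 and 35.1% of all genes. They lay below 0 for 11 (30.6%) in each, against 29.7 and 42.6% of all genes. For complexes II to V, intervals lay above 0 for 10 in Ime and 28 in Met, and below 0 for 18 and 6. For Met, the complex I median was 0.53 on thinned counts, -0.48 at 3000 to 15000 UMIs, -0.09 with cells weighted equally and -0.02 without other cells' markers. That of complexes II to V was 0.66, -0.42, -0.02 and 0.05 by the same 4 ways. For Ime, the complex I median lay between -0.01 and 0.11. Among single genes, the mitochondrially encoded mt-Nd4 stood at 21.5, 135 and 55.4 CPM in Ime, Met and CT (log2 -1.37, -1.35 to -1.11 over the other ways, and 1.29, 0.84 to 1.56), and the ATP synthase subunit Atp5b at 143, 550.2 and 211 CPM. In bulk, 31 of 36 complex I genes rose with imeglimin (median log2 fold change 0.51) and 36 of 36 with metformin (0.75), and 34 and 38 of 38 genes of the other complexes rose. Among all genes, 7.97% rose with imeglimin and 11.6% with metformin. Atp5b had 1831, 1795 and 2148 CPM with imeglimin, 2026, 2285 and 2151 CPM with metformin and 1329, 1318 and 1247 CPM in Control. The groups were apart, and it rose with both drugs (0.57 ± 0.08, edgeR adjusted p = 0.00424, and 0.73 ± 0.08, adjusted p = 0.000504).

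By median, cholesterol synthesis and uptake was lower in the members and higher in bulk, though few of its genes were called with metformin. Of 24 genes, 21 were lower in Ime than in CT, 17 with intervals below 0, and 20 were lower in Met, 17 with intervals below 0, against 29.7% and 42.6% of all genes with such an interval. Fdft1, the squalene synthase, stood at 61.0, 118 and 153 CPM in Ime, Met and CT. Insig1, which holds back the sterol-sensing pathway, stood at 179, 269 and 120.0 CPM, above CT in both. In bulk, 17 of the 24 rose with imeglimin (median log2 fold change 0.90) and 4 with metformin (0.37), and 0 fell. The shares of all genes that rose were 7.97% with imeglimin and 11.6% with metformin. Fdft1 had 63.99, 113 and 101 CPM with imeglimin, 58.9, 56.2 and 55.9 CPM with metformin and 44.4, 52.9 and 50.8 CPM in Control. All imeglimin libraries exceeded the rest, and Fdft1 rose with imeglimin (log2 fold change 0.91 ± 0.17 SE, edgeR adjusted p = 0.0105), while its value with metformin did not pass the test (0.21 ± 0.17, edgeR adjusted p = 0.423). The bulk libraries are whole colon at 4 weeks and the cells are from 12 weeks, and which of tissue, time and assay goes with the difference cannot be told apart.

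Antioxidant genes of the glutathione and NRF2 list were lower in Ime. Of 15, 13 were lower than in CT, 11 with intervals below 0 (73.3%, against 29.7% of all genes), and in Met 6 were lower and 9 higher. Gstm1, a glutathione transferase, stood at 10.5, 74.7 and 34.6 CPM in Ime, Met and CT, and Gstp1 at 89.8, 190 and 180 CPM. In bulk, 9 of 18 rose with imeglimin and 13 of 18 with metformin, and 0 fell, against 7.97 and 11.6% of all genes that rose. Gstm1 itself passed the test with neither (0.16 ± 0.10, edgeR adjusted p = 0.327, and 0.01 ± 0.10, adjusted p = 0.937), and Gstp1 rose with both (0.39 ± 0.08, adjusted p = 0.0139, or 0.058 without Control 3, and 0.65 ± 0.08, adjusted p = 0.000742).

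Gdf15, a target of the integrated stress response that metformin is known to raise, differed little between the matrices, while the list of that response was higher in Met. Gdf15, a stress hormone that lowers appetite, stood at 34.3 CPM in Ime, 46.6 CPM in Met and 37.6 CPM in CT, with a log2 ratio of 0.31 for Met against CT. Of 26 genes of the integrated stress response, 14 were higher in Ime, 7 with intervals above 0 (26.9%, against 15.5% of all genes), and 19 were higher in Met, 16 with intervals above 0 (61.5%, against 35.1%). The medians were 0.01 in Ime (0.06 to 0.15 over the other ways) and 0.20 in Met (0.39 to 0.77). In bulk, 8 of 26 rose with imeglimin (median log2 fold change 0.24) and 14 with metformin (0.64), and 0 fell, against 7.97 and 11.6% of all genes that rose. In bulk Gdf15 had 10.7, 5.46 and 11.9 CPM with imeglimin, 20.2, 21.97 and 21.0 CPM with metformin and 7.49, 5.92 and 6.36 CPM in Control. It rose with metformin (log2 fold change 1.67 ± 0.24, edgeR adjusted p = 0.00159), whose libraries stood above all others, and not with imeglimin (0.51 ± 0.24, adjusted p = 0.201). Acta1, the actin of skeletal muscle, was measured at 4.57, 59.1 and 12.4 CPM in the members of Ime, Met and CT and at 3.86, 36.9 and 6.67 CPM in other barcodes. Its bulk libraries had 10.3, 9.13 and 5.61 CPM with imeglimin, 74.4, 104 and 84.2 CPM with metformin and 6.09, 6.26 and 4.65 CPM in Control, a rise with metformin (3.95 ± 0.23, adjusted p = 4.5e-05).

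The 2 related compounds were tested against each other in bulk as 1 pair, at the same concentration and time. Of 18665 genes, edgeR called 27 higher and 87 lower with imeglimin than with metformin (0.145% and 0.466%, 0.611% in all), with 3523 genes at an unadjusted p under 0.05. The total was not stable, as it ranged from 11 to 543 when 1 library was left out. Slc34a2 was higher with imeglimin (log2 fold change 3.11 ± 0.31, edgeR adjusted p = 0.0074), as was Trpv6 (2.29 ± 0.25, adjusted p = 0.00807), and Aqp8 (-1.26 ± 0.12, adjusted p = 0.0074) and Acta1 (-3.39 ± 0.22, adjusted p = 0.000572) were lower. In the members, Ime against Met stood at log2 ratios of 1.65 for Slc34a2, 3.10 for Trpv6, -0.76 for Aqp8, which the rule used, and -3.69 for Acta1. Several genes with wide ratios between Ime and Met missed the threshold in bulk, among them Ankrd37 (1.46, interval 0.65 to 2.27, adjusted p = 0.0919), Egln3 (0.86, 0.46 to 1.25, adjusted p = 0.0612), Car1 (1.37, 0.34 to 2.40, adjusted p = 0.159) and Irf7 (-0.47, -0.90 to -0.04, adjusted p = 0.225). For Hkdc1 the difference was 0.39 (-0.21 to 0.99, adjusted p = 0.467), for Tfrc -0.12 (-0.34 to 0.10, adjusted p = 0.565) and for Ces2b -0.09 (-0.59 to 0.40, adjusted p = 0.853). A p above the threshold does not show that the compounds act alike. With DESeq2, which called 1292 genes for this pair, Ankrd37 (adjusted p = 0.00213) and Egln3 (adjusted p = 0.000219) passed. Without Imeglimin replicate 3, where edgeR called 543 genes, Ankrd37 (adjusted p = 0.0244), Egln3 (adjusted p = 0.0426) and Car1 (adjusted p = 0.048) passed. With the batch block, Duox2 (0.63, adjusted p = 0.0481) and Duoxa2 (0.83, adjusted p = 0.0339) were higher with imeglimin than with metformin, and fitted on these 2 groups alone Trpv6 missed the threshold (adjusted p = 0.0624).

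Within a matrix, the genes that varied most from member to member were antibody, hormone, muscle and connective tissue genes. Over genes with a mean of at least 0.1 UMI at 1000 UMIs per cell, the median ratio of variance to mean was 1.07 in Ime, 1.11 in Met and 1.07 in CT, where 1 is counting noise. Of 1781 genes past that mean in all 3 matrices, the 10 with the best poorest rank were Igha, Igkc, Insl5, Chgb, Tagln, Col3a1, Tpm2, Cd74, Col1a2 and Apoe. Igha and Igkc, the chains of the antibody secreted into the gut, had ratios of 76.5 and 61.9 in Ime, 196 and 174 in Met and 86.3 and 83.2 in CT, and Insl5, a hormone of enteroendocrine cells, had 20.3, 52.3 and 131. Under the rule on thinned counts the log2 ratio of Igha between Met and CT was -0.19, against 2.53 over all members.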

How the data were processed

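The single-cell data are UMI counts that the authors deposited as 3 matrices of 19070 probe genes, made with Cell Ranger 9.0.0 per the file headers, from formaldehyde-fixed colon and a probe-based kit per the labels' protocols. Barcodes carry 16 droplet bases and 8 probe bases. The bulk data are raw read counts per gene that the authors deposited for 9 libraries of stranded mRNA (32236291 to 44373717 counts). Per the submitters' processing notes, HISAT2, StringTie, Trimmomatic and FastQC were among the tools and GRCm39 and mm10 the builds, with no role named. Use of strand in counting is not stated.

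Members, lists and named genes were chosen with earlier results of these data known. Named were the 6 rule markers, the 10 largest ratios each way per pair with CT and 5 each way for Ime against Met (50 CPM, 50 UMIs, past 2-fold), up to 3 genes per list with the largest ratio to CT and its highest gene in CT, 12 fixed genes and the 10 most variable, 126 in all. UMIs were summed over members. Intervals at 95% are exact Poisson for CPM, exact binomial for shares and conditional binomial for ratios, and cover counting error only. Shares were compared after thinning to 1000 UMIs, leaving out 9, 191 and 29 shallower members of Ime, Met and CT. No doublets were called. Other cells were classed by their markers, which serve here as background. For 5 duplicated symbols the first row was used.

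Bulk counts were tested over all 9 libraries with edgeR 4.0.16 (TMM, filterByExpr, quasi-likelihood F test, Benjamini-Hochberg at 0.05) in R 4.3.3, with DESeq2 1.42.0, RLE scaling, no filter, the 2 groups alone, each library left out and the batch as a block as alternatives. The labels give a batch that equals the replicate number, so the numbers pair the libraries, and same-numbered libraries had a mean correlation of deviations of 0.0689 (-0.0286 to 0.170, 3 of 9 over 0.1). Replicates differed beyond sampling noise (chi-square per gene 23.1 to 52.0). On simulated data for metformin against Control (18337 genes), 72.5% of genes changed by a log2 fold of 1 were recovered. Python 3.11.15, numpy 2.4.6, scipy 1.17.1 and pandas 2.3.3 were used for the cells. Promoter windows are from RefSeq. The other samples of the series were not analysed here.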

Additional observations from a re-analysis of the deposited data

How the results depend on the processing

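The share of barcodes that were members moved with the rule. In Ime it was 16.2% with 3 or more markers, 8.45% with 5 or more, 9.81 and 12.5% with the goblet limit at 1 and 5%, 9.30% without the top 5% of UMIs and 4.69% without members carrying 2 or more UMIs of other cells' markers. In Met the same steps gave 68.5, 47.4, 43.2 and 61.7%, with 31.1% on thinned counts and 2.58% without other cells' markers. In CT they gave 32.1, 17.5, 22.1 and 25.9%, with 14.9% on thinned counts, 22.7% without the top 5% and 9.02% without other cells' markers.

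Counts past 2-fold depended on the floor and on which members were taken. For Ime against CT, genes higher numbered 41 with a floor of 100 CPM, 187 with no floor and 276 at 1.5-fold. Genes lower numbered 27, 758 and 512, and 44 with 3 or more markers, 126 with 5 or more, 175 without the top 5%, 198 without other cells' markers and 110 at 3000 to 15000 UMIs. For Met against CT, genes higher numbered 101, 2154 and 401, 587 at 3000 to 15000 UMIs and 465 with cells weighted equally. Genes lower numbered 72, 510 and 783, 186 on thinned counts, 70 without other cells' markers, 187 at 3000 to 15000 UMIs and 57 by the median of ratios. For Ime against Met, genes higher numbered 186, 753 and 1083, and 203 without other cells' markers, and genes lower 178, 3298 and 817, 600 without other cells' markers, 839 at 3000 to 15000 UMIs and 684 with equal weights. The cause was not tested.

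Among named genes past 2-fold over all members, log2 ratios that changed sign on thinned counts were Reg4 (0.56), Igkc (-0.0073) and Igha (-0.19) for Met against CT, Gcg (2.55) for Ime against CT, and Tpm2 (0.0734), Igkc (0.30), Igha (0.56), Cd74 (0.22) and Pcsk1n (0.50) for Ime against Met. Without other cells' markers, Penk turned to 0.63 for Ime against CT and Isg15 to 0.69 for Ime against Met. In bulk, Cela2a turned to 5.88 with imeglimin and 6.21 with metformin without Control replicate 3, where leaving out other libraries reached -13.07 and -12.74 and the value over all libraries was -12.49 and -12.16.

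In bulk, imeglimin against Control ranged from 932 (without Control replicate 3) to 2188 calls, and metformin against Control from 2066 (without Metformin replicate 2) to 3990, when 1 library was left out. Imeglimin against metformin ranged from 11 (without Metformin replicate 3) to 543 (without Imeglimin replicate 3), and gave 62 with no filter, 1292 with DESeq2 and 17 on its 2 groups alone, so its count is not stable. With the replicate block, the pairing by the batch of the labels, the 3 comparisons gave 2059, 3546 and 92 calls. Among genes whose bulk value the text gives, the block changed no call other than those given with it. Depth limits low genes most, and 1 matrix per treatment name leaves the spread between animals unmeasured.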

Other observations

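Other gene lists differed in how far they stood from all genes in the members, where 15.5% of genes in Ime and 35.1% in Met had counting intervals above CT, and 29.7 and 42.6% below. The 17 brush border genes are scaffold, enzyme, mucin and adhesion genes, with 2 rule markers, Krt20 and Ceacam1. In Ime 11 were higher than in CT, 7 with intervals above 0, with a median log2 ratio of 0.06 (-0.14 over all genes). In Met 16 were higher, all 16 with intervals above 0, with a median of 0.49 (-0.05 over all genes). Part of these counts comes from values the rule used. Among the other ways of taking the members, the list in Met lay above the all-gene median on thinned counts (0.35 against -0.12). It lay below at 3000 to 15000 UMIs (0.16 against 0.20), with cells weighted equally (0.04 against 0.14) and without other cells' markers (0.15 against 0.20). Of 17 heat shock genes, 13 were lower in Ime, 9 with intervals below 0 (52.9%, median -0.40), and 10 in Met, 9 with intervals below 0 (52.9%, median -0.09). Cct2, a chaperonin subunit, stood at 34.9, 88.7 and 108 CPM. Of 23 genes of short-chain fatty acid and fatty acid oxidation, 3 had intervals above 0 in Ime (13.04%, median 0.01) and 16 in Met (69.6%, median 0.18), but the median in Met was -0.26 at 3000 to 15000 UMIs. Iron handling genes stayed near all genes in Ime (2 of 11 with intervals above 0, 18.2%, median 0.02).

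Transcripts of pancreatic enzymes were present in the members and highest in Ime. Ctrb1, a chymotrypsinogen, stood at 400.4 CPM in Ime, 45.0 CPM in Met and 59.9 CPM in CT, and at 203, 47.2 and 61.2 CPM in fibroblasts. Cela2a, an elastase, stood at 121, 19.3 and 21.2 CPM. In bulk colon, Cela2a was at 3161 CPM in Control replicate 3 and at 0 in Control replicates 1 and 2. Clps, the colipase gene, was at 632 CPM in that library and at 6.57 and 6.87 CPM in the other Control libraries.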
